A study of Mus musculus with 8 samples.

Results

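The 10 genes described here encode factors that skeletal muscle, or the cells within it, secrete. They are Bdnf, Metrnl, Il15, Fndc5, Ostn, Vegfa, Vegfb, Apln, Fstl1 and Lif, measured in mouse soleus, a slow, oxidative hindlimb muscle. They were picked by symbol, as 10 of the 24033 genes in the deposited table, with earlier results of the same genotype comparison known, so their differences between genotypes are given as a description and not as a test. RNA was sequenced from 4 K15-SKO and 4 MyoCre mice aged 2 months. K15-SKO mice had the genotype Myogenin-Cre/+;K15F/F, in which a Cre recombinase under myogenin control acts on floxed Klf15 alleles. MyoCre mice had the genotype Myogenin-Cre/+, so both groups carry the Cre. Myogenin is active in differentiating skeletal muscle cells, so that endothelial cells, fibroblasts and other cells of the whole muscle are not targeted by it. KLF15 is a zinc finger transcription factor known for its part in amino acid and lipid metabolism, and the comparison asks how its deletion in muscle changes the muscle's RNA.

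Muscle signals to itself and to other tissues through secreted proteins, often called myokines, many of which are released with contraction. Bdnf encodes a neurotrophin that binds the kinase receptor TrkB, and Metrnl encodes meteorin-like, a factor released after exercise that in mice acts on immune cells and on fat. Vegfa, Vegfb and Apln encode factors that act on blood vessels, Ostn encodes musclin, which binds the natriuretic peptide clearance receptor, and Fndc5 encodes the membrane protein from which irisin is cut. Il15 and Lif encode cytokines, and Fstl1 encodes a secreted glycoprotein made by muscle and by connective tissue cells.

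Klf15 itself measured 15.7, 19.3, 16.7 and 13.1 FPKM (fragment counts scaled by transcript length and library size) in the K15-SKO libraries, against 44.5, 49.8, 49.1 and 22.8 FPKM in the MyoCre libraries. Its K15-SKO mean was 38.9% of the MyoCre mean, with a log2 fold change of -1.28 (SE 0.25, limma adjusted p = 0.0315). That call ended in 14 of the 22 alternative fits described below (limma adjusted p = 0.0904 with median-of-ratios scaling). The libraries rested on an estimated 8080000 to 22100000 fragments. The estimate is least certain for K15-SKO replicates 3 and 4, where the values taken as 1 fragment have near-equal peaks that give 13300000 or 4920000 fragments in replicate 3 and 8080000 or 7330000 in replicate 4. Slow muscle genes summed to between 11604 and 22342 FPKM in K15-SKO muscle and to between 11959 and 20817 FPKM in MyoCre muscle, and none of these 10 genes was at 0 in any library. K15-SKO replicate 3 stood apart, where Rn7sk, a small nuclear RNA, took 14.1% of all FPKM (8.67% to 10.5% in the others), and had a median-of-ratios factor of 0.80. MyoCre replicate 2 was the deepest library and the only male by Xist and Y-linked genes. Over the 12535 genes tested the log2 fold changes had a median of -0.12, which became 0.00 once libraries were scaled by median-of-ratios factors, so fold changes are also given against that median.

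Some regions before the transcription starts of the 2 genes whose genotypes did not overlap, Bdnf and Metrnl, are shown because KLF factors are known to bind GC-rich elements with the core CACCC. Each is 250 bases of RefSeq's GRCm38.p6 sequence (the mm10 build), 5′ to 3′, ending at the base before a start, and capitals mark CACCC on either strand (GGGTG where it lies on the other strand).
Bdnf, chr2:109674450-109674699, plus strand: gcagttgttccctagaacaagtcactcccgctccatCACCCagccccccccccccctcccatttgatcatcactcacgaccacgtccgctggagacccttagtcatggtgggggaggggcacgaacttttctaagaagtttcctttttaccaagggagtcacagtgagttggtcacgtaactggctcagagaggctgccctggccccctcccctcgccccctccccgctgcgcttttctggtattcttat
Bdnf, chr2:109694159-109694408, plus strand: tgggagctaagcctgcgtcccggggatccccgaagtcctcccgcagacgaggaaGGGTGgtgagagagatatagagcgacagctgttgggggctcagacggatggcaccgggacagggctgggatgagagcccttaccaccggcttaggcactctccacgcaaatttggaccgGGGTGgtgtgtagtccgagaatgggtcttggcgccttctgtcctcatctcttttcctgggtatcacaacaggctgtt
Metrnl, chr11:121702177-121702426, plus strand: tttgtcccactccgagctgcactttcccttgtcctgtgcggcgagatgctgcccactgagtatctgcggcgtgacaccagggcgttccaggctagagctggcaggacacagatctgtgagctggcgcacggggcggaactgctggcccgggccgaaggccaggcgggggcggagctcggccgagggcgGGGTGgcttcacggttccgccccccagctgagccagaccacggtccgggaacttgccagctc
The first Bdnf window lies before the most upstream start and holds 1 match, and the second lies before an internal start and holds 2. The Metrnl window holds 1. It lies inside the annotated gene, which starts at base 121701544, with 16 of its bases in the gene's own exons. Bdnf has 7 such windows, of which 5 hold the core. Both Bdnf windows printed are among these 5, the second has the most matches of the 7, and those without the core are not printed. Over all members with a window, 12 of 15 windows hold it, 5 of them those of Bdnf and 7 among the 8 of the other genes, against 52.1% of 32536 windows of the same length over all genes. The only member with a window that lacks it is Apln. The shares are not matched for GC content, which was 39.2% to 80.8% in member windows. They are not matched for exons either, which hold 218 of the 250 bases of 1 Vegfa window. Nothing is read from the difference. A match is a run of letters in a window, and no binding was measured here.

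Bdnf RNA was lower in K15-SKO muscle than in any MyoCre library. The gene (ENSMUSG00000048482.14) spans bases 109674700 to 109727007 of chromosome 2 (mm10, plus strand), and its 11 annotated transcripts start from several alternative promoters that are not resolved in these values. Bdnf measured 0.746, 0.514, 0.172 and 0.863 FPKM in K15-SKO replicates 1 to 4, against 2.56, 1.17, 2.63 and 4.33 FPKM in MyoCre replicates 1 to 4. The highest K15-SKO library thus lay below the lowest MyoCre library, which was the male and deepest one. The means were 0.574 ± 0.304 FPKM in K15-SKO and 2.67 ± 1.30 FPKM in MyoCre muscle (SD, n = 4 each), so that K15-SKO muscle held 21.5% of the MyoCre level. On the log2(FPKM + 0.5) scale, which understates changes of low genes, the fold change was -1.51 (SE 0.31), or -1.39 against the all-gene median. Of the 12535 tested genes, 78 had a more negative fold change, a rank given as a description because the comparison was known when Bdnf was picked. Bdnf was a low gene in both genotypes, at the 11.0th percentile of tested genes by mean level. With the longest transcript of 4266 bases its values correspond to roughly 9.78 to 30.9 fragments in K15-SKO libraries and 92.4 to 198 fragments in MyoCre libraries (the lowest, in K15-SKO replicate 3, becomes 3.62 at its smaller depth), so the K15-SKO values carry considerable counting error. An annotated antisense gene, Gm45346, overlaps Bdnf exons, and without a stated strand setting reads from the antisense gene cannot be told apart from those of Bdnf.

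Within the MyoCre group, the libraries did not rank alike by Bdnf and by Klf15. MyoCre replicate 4 had the lowest Klf15 of its group, 22.8 FPKM, and the highest Bdnf, 4.33 FPKM. Replicate 2 had the highest Klf15, 49.8 FPKM, and the lowest Bdnf, 1.17 FPKM. In K15-SKO muscle the lowest Bdnf, 0.172 FPKM, was in replicate 3, the library that stood apart, and without that library the fold change was -1.31. Without MyoCre replicate 2 it was -1.79, and without both -1.58.

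Metrnl was lower in K15-SKO muscle as well, by a smaller margin. It spans bases 121701544 to 121716306 of chromosome 11 (plus strand). Metrnl measured 9.04, 8.13, 8.24 and 6.85 FPKM in K15-SKO libraries, against 10.4, 18.9, 15.2 and 10.4 FPKM in MyoCre libraries. The K15-SKO libraries lay close together, and MyoCre replicates 1 and 4 lay just above them. The means were 8.07 ± 0.909 FPKM in K15-SKO and 13.7 ± 4.12 FPKM in MyoCre muscle (SD, n = 4 each), or 58.8% of the MyoCre level. The log2 fold change was -0.69 (SE 0.21), and -0.57 against the all-gene median. With median-of-ratios scaling the groups overlapped, since K15-SKO replicate 3 then had 10.4 scaled FPKM and MyoCre replicate 1 had 10.2. The highest value, 18.9 FPKM, was in the male library, without which the fold change was -0.53.

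**Figure D1:**
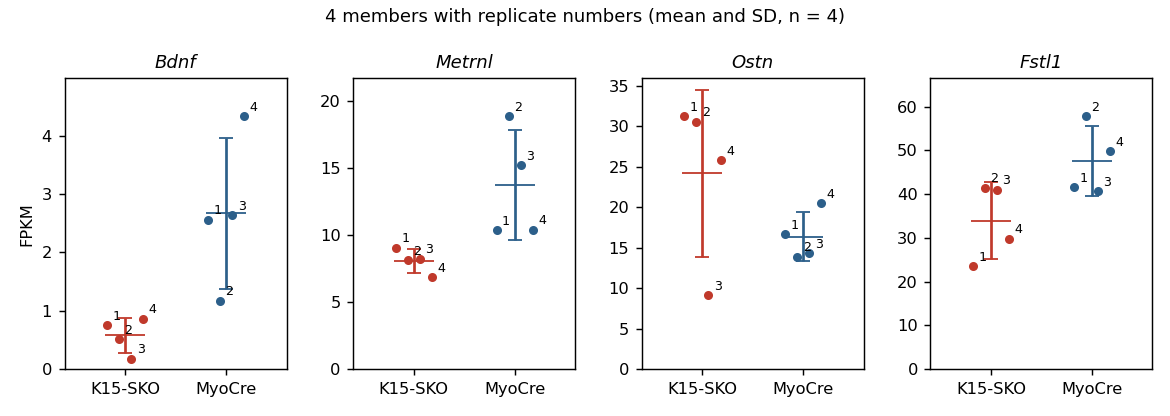
Points show Bdnf, Metrnl, Ostn and Fstl1 FPKM (y axis, from 0) in each K15-SKO (left, red) and MyoCre (right, blue) library, numbered by replicate, with the mean and SD of 4. K15-SKO Bdnf, at most 0.863 FPKM, and Metrnl, at most 9.04 FPKM, lie below all MyoCre points, while Ostn in K15-SKO replicate 3 (9.12 FPKM) lies apart from the other 3 K15-SKO libraries.

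None of the 9 members in the fit over all genes passed an adjusted p of 0.05 (limma), where 0.55% of all tested genes passed. Of those 69 genes, 46 are listed at 0 in every MyoCre library, as no member is. The 2 members whose K15-SKO libraries all lay below the MyoCre libraries stand beside 2.72% of tested genes with that pattern, and 0 members beside 0.63% for the opposite pattern. Of the 9 members 7 had negative fold changes, against 77% of all tested genes, and 4 were under the all-gene median. The median of the 9 was -0.12, which is 0.01 above that of all tested genes, and that difference ranged from -0.11 without MyoCre replicate 4 to 0.11 without MyoCre replicate 2. Since the same comparison was known when the genes were picked, nothing is read from these counts. Lif did not reach the minimum mean of 1 FPKM and was not in the fit.

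**Figure D2:**
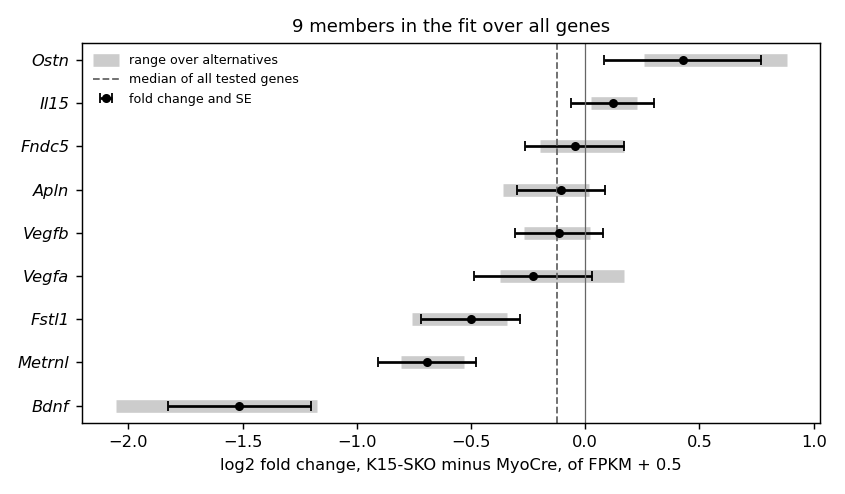
Black points and bars show the log2 fold change (K15-SKO minus MyoCre, x axis) and SE of the 9 fitted members, and grey bars the range over all alternative settings. Bdnf (-1.51), Metrnl (-0.69) and Fstl1 (-0.50) keep their sign over the grey range, as do Ostn (0.43) and Il15 (0.12) on the other side of 0, and the other members cross it.

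Ostn, which encodes musclin, varied more between K15-SKO libraries than between MyoCre libraries, with K15-SKO replicate 3 apart from the rest. The gene spans bases 27307489 to 27351212 of chromosome 16 (plus strand), where an antisense gene, Gm32312, overlaps its exons. Ostn measured 31.3, 30.6, 9.12 and 25.8 FPKM in K15-SKO libraries, against 16.7, 13.9, 14.3 and 20.5 FPKM in MyoCre libraries. K15-SKO replicates 1, 2 and 4 lay above every MyoCre library and replicate 3 lay below them all, so the groups overlapped. The means were 24.2 ± 10.3 FPKM in K15-SKO and 16.3 ± 3.02 FPKM in MyoCre muscle (SD, n = 4 each). The log2 fold change was 0.43 (SE 0.34), or 0.55 against the all-gene median, and 0.83 without K15-SKO replicate 3.

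Fndc5, the irisin precursor, was the most abundant member by FPKM in 7 of 8 libraries. It spans bases 129136999 to 129144593 of chromosome 4 (plus strand). Fndc5 measured 110.2, 118.6, 69.9 and 86.1 FPKM in K15-SKO libraries, against 100.7, 113.3, 111.0 and 70.6 FPKM in MyoCre libraries. Each group held both high and low libraries, and the ranges coincided almost fully. The log2 fold change was -0.05 (SE 0.22), and its sign turned with the scaling (0.09 with median-of-ratios scaling). Ppargc1a, the coactivator known to raise Fndc5 expression in mouse muscle, measured 35.7, 29.5, 16.9 and 41.1 FPKM in K15-SKO libraries, against 16.8, 56.4, 23.3 and 37.8 FPKM in MyoCre libraries, with a log2 fold change of -0.05 (SE 0.38, limma adjusted p = 0.989).

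Among the vascular factors, Vegfa, the main inducer of vessel growth, measured 74.1, 74.4, 45.9 and 58.5 FPKM in K15-SKO libraries, against 67.5, 123.8, 54.0 and 62.2 FPKM in MyoCre libraries. MyoCre replicate 2, the male library, lay above all others, and the other 3 MyoCre libraries lay inside the K15-SKO range. The log2 fold change of Vegfa was -0.23 (SE 0.26), and 0.02 without that library. Vegfb, a relative that binds the receptor Flt1, measured 31.6, 26.4, 26.1 and 27.4 FPKM in K15-SKO libraries, against 31.4, 37.8, 32.0 and 21.8 FPKM in MyoCre libraries. Its K15-SKO libraries lay inside the MyoCre range, with a log2 fold change of -0.12 (SE 0.19) whose sign turned under median-of-ratios scaling (0.02). Vegfa lies on chromosome 17 (46016993 to 46032369) and Vegfb on chromosome 19 (6982473 to 6987651), both on the minus strand. Vegfa exceeded Vegfb in every library, with FPKM ratios of 1.76 to 2.82 in K15-SKO and 1.69 to 3.28 in MyoCre muscle.

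Apln, the peptide ligand of a receptor on endothelial cells, was low and differed in spread. It spans bases 48025146 to 48034853 of chromosome X (minus strand). Apln measured 1.26, 1.63, 1.89 and 2.50 FPKM in K15-SKO libraries, against 2.01, 1.96, 2.01 and 1.82 FPKM in MyoCre libraries. The K15-SKO values spread to both sides of the narrow MyoCre values, with a coefficient of variation of 28.6% in K15-SKO and 4.55% in MyoCre muscle; this difference in spread was not tested. The log2 fold change was -0.10 (SE 0.19), with a sign that turned under median-of-ratios scaling (0.01).

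Fstl1 (chromosome 16, bases 37776873 to 37836514, plus strand) had lower values in K15-SKO muscle with some overlap. It measured 23.5, 41.4, 41.0 and 29.8 FPKM in K15-SKO libraries, against 41.6, 57.8, 40.7 and 49.8 FPKM in MyoCre libraries. K15-SKO replicates 2 and 3 reached the lower MyoCre libraries, and replicates 1 and 4 lay below all of them. With median-of-ratios scaling the overlap was wider. K15-SKO replicate 3 then had 51.5 scaled FPKM, above MyoCre replicates 1, 3 and 4 (40.7, 35.3 and 51.2). The means were 33.9 ± 8.80 FPKM in K15-SKO and 47.5 ± 8.0 FPKM in MyoCre muscle (SD, n = 4 each), with a log2 fold change of -0.50 (SE 0.22), or -0.38 against the all-gene median. Fibroblast and matrix markers lay mostly on the same side: of 16 tested, 13 were under the all-gene median, the list's median was 0.19 below it, and 0 passed in either direction. Against the all-gene median, the list's median was -0.43 without K15-SKO replicate 3 and 0.01 without K15-SKO replicate 1. Their summed level was 611.3 to 1073 FPKM in K15-SKO and 894.3 to 1355 FPKM in MyoCre libraries, with no marker at 0. Their part in the Fstl1 values was not tested, and in whole muscle fewer cells of a type cannot be told apart from less RNA per cell.

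Both cytokines were low. Il15 (chromosome 8, bases 82331632 to 82403222, minus strand) measured 1.92, 1.62, 1.62 and 2.38 FPKM in K15-SKO libraries, against 1.64, 1.68, 1.47 and 1.93 FPKM in MyoCre libraries. Its groups overlapped over most of their range, with a log2 fold change of 0.12 (SE 0.18). Lif (chromosome 11, bases 4257557 to 4272514, plus strand) measured 0.0554, 0.0926, 0.0819 and 0.0826 FPKM in K15-SKO libraries, against 0.184, 0.121 and 0.0879 FPKM in MyoCre replicates 1, 2 and 4, and it was listed at 0 in MyoCre replicate 3. These values stand for about 2.17 to 4.39 fragments in K15-SKO and up to 10.8 fragments in MyoCre libraries, so that a difference was not detectable at this depth.

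**Figure D3:**
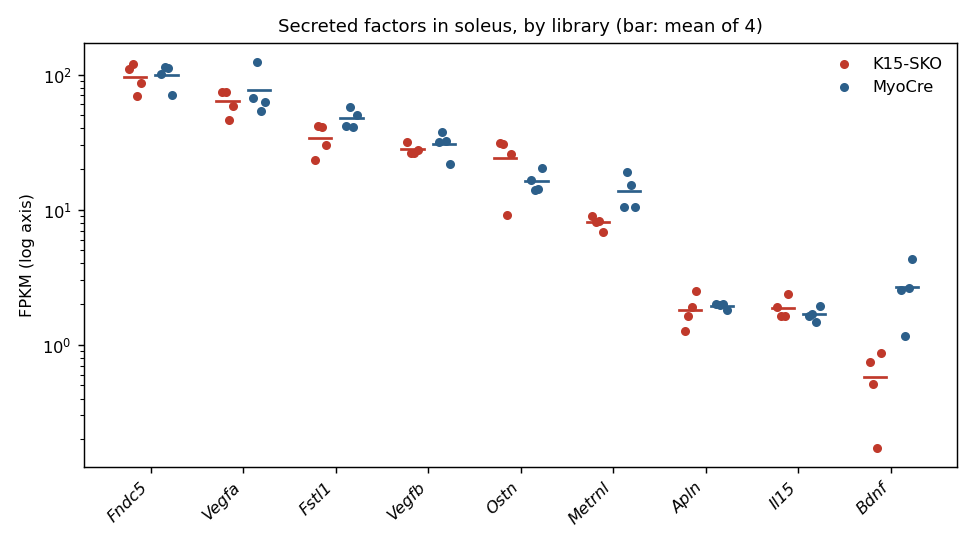
Points show the FPKM (log axis) of 9 members in each K15-SKO (left of each pair, red) and MyoCre (right, blue) library, with bars at the mean of 4; Lif, at most 0.184 FPKM, is left out. Fndc5 and Vegfa lie highest, and Bdnf is the member with the widest gap between genotypes.

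By level per transcript length, the members kept nearly the same order in both genotypes. In K15-SKO muscle the order by mean FPKM was Fndc5, Vegfa, Fstl1, Vegfb, Ostn, Metrnl, Il15, Apln, Bdnf and Lif, and in MyoCre muscle it was Fndc5, Vegfa, Fstl1, Vegfb, Ostn, Metrnl, Bdnf, Apln, Il15 and Lif. Bdnf was below Apln in 4 of 4 K15-SKO libraries and above it in 3 of 4 MyoCre libraries, the exception being MyoCre replicate 2. Neighbours whose ranges overlapped in K15-SKO muscle were Fndc5 and Vegfa, Fstl1 and Vegfb, Vegfb and Ostn, and Il15 and Apln. In MyoCre muscle they were Fndc5 and Vegfa, Vegfa and Fstl1, Ostn and Metrnl, Bdnf and Apln, and Apln and Il15. K15-SKO replicate 3 had the lowest value of its group in 5 of the 9 fitted members, and MyoCre replicate 2 the highest of its group in 5 of 9. The shares over all genes were not counted. K15-SKO replicate 3 had a median-of-ratios factor of 0.80, and after that scaling it no longer had the lowest Vegfb of its group.

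Receptors and binding partners of these factors did not pass the test of the genotype. Of 20 receptors and binding partners 17 were tested and 0 passed in either direction, against 0.367% of all genes higher and 0.183% lower. The genes behind the 0.367% are all listed at 0 in every MyoCre library, as no receptor is. At unadjusted p under 0.05, 1 was higher and 0 were lower, against 0.901% and 3.43%. Their median fold change lay 0.08 above that of all genes, and 0.00011 above it without K15-SKO replicate 3. Among the receptors for Bdnf, the kinase receptor Ntrk2 measured 1.31 ± 0.336 FPKM in K15-SKO and 1.80 ± 0.458 FPKM in MyoCre muscle (SD, n = 4 each), with a log2 fold change of -0.34 (SE 0.21, limma adjusted p = 0.957). Sortilin, Sort1, which sorts and binds the Bdnf precursor, measured 2.97 ± 0.501 FPKM in K15-SKO and 3.19 ± 0.567 FPKM in MyoCre muscle. The neurotrophin receptor Ngfr, at most 0.263 FPKM, fell under the filter and was listed at 0 in MyoCre replicate 1. Kit, reported as a Metrnl receptor in mouse heart, reached at most 0.533 FPKM and was not tested.

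Il15ra, the chain that presents Il15, measured 6.29 ± 1.35 FPKM in K15-SKO and 8.06 ± 1.75 FPKM in MyoCre muscle. The shared cytokine chain Il2rg had a log2 fold change of 0.30 (SE 0.22), and Il2rb, at most 0.183 FPKM, was not tested. For the irisin-binding integrin subunits Itgav and Itgb5 the log2 fold changes were -0.14 (SE 0.24) and -0.08 (SE 0.23). The clearance receptor Npr3, which binds musclin, measured 28.6 ± 6.03 FPKM in K15-SKO and 30.5 ± 9.97 FPKM in MyoCre muscle, and its relatives Npr1 and Npr2 had log2 fold changes of 0.11 and -0.10.

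The Vegfa receptor Kdr measured 12.5 ± 1.64 FPKM in K15-SKO and 12.4 ± 1.86 FPKM in MyoCre muscle, and Flt1 measured 16.0 ± 3.73 FPKM in K15-SKO and 16.2 ± 3.56 FPKM in MyoCre muscle. The co-receptors Nrp1 and Nrp2 had log2 fold changes of -0.28 (SE 0.17) and 0.02 (SE 0.19). Aplnr, the apelin receptor, measured 8.75, 8.01, 10.6 and 12.5 FPKM in K15-SKO libraries, against 5.34, 6.57, 5.91 and 10.2 FPKM in MyoCre libraries. MyoCre replicate 4 alone kept the groups from separating, and the log2 fold change was 0.50 (SE 0.22, unadjusted p = 0.0406, limma adjusted p = 0.957). Endothelial and mural markers had a list median 0.26 above that of all genes, which was 0.09 above it without K15-SKO replicate 3, and 0 of 18 were past the threshold. Their summed level was 517.3 to 565.7 FPKM in K15-SKO and 476.9 to 559.7 FPKM in MyoCre libraries, with none at 0, and the junction gene Cdh5 measured 30.9 ± 1.23 FPKM in K15-SKO and 23.1 ± 4.03 FPKM in MyoCre muscle. Their part in the Aplnr values was not tested. Lifr measured 18.4 ± 1.16 FPKM in K15-SKO and 20.1 ± 4.39 FPKM in MyoCre muscle, its partner Il6st had a log2 fold change of -0.02 (SE 0.18), and Dip2a, named as a receptor for Fstl1, had one of 0.02 (SE 0.17).

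**Figure D4:**
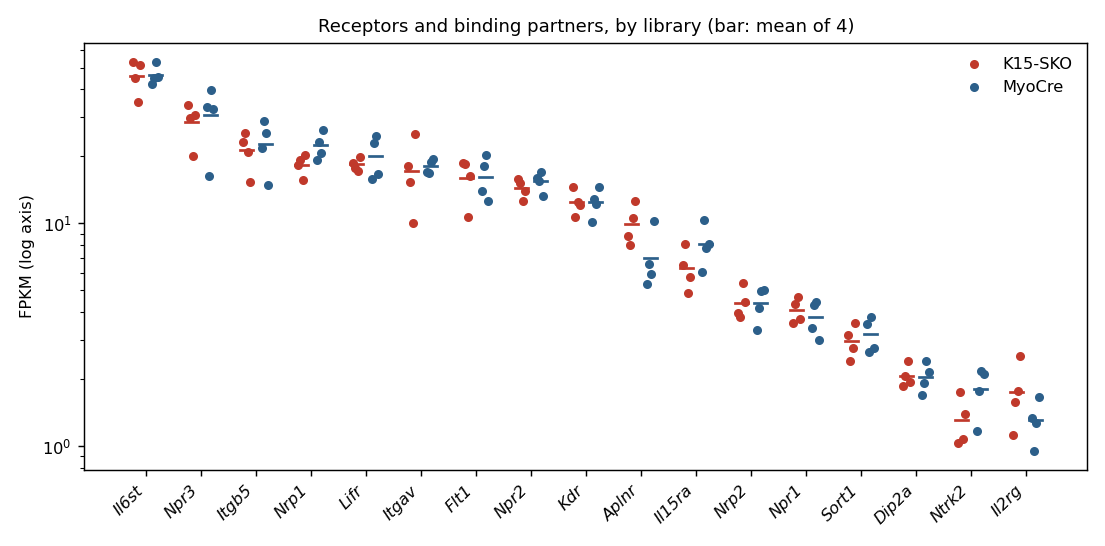
Points show the FPKM (log axis) of the 17 tested receptors and binding partners in each K15-SKO (left of each pair, red) and MyoCre (right, blue) library, ordered by mean level, with bars at the mean of 4. The groups overlap for all 17. A single MyoCre library alone keeps the groups from separating for Aplnr (replicate 4) and for Nrp1 and Ntrk2 (replicate 1).

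Other secreted factors of muscle gave 0 genes past the threshold among 26 tested of 45 in the table. At unadjusted p under 0.05, 2 were lower and 0 higher, against 3.43% and 0.901% of all tested genes. Manf, a neurotrophic factor of the endoplasmic reticulum, was among these. It measured 7.74, 10.1, 4.85 and 7.04 FPKM in K15-SKO libraries, against 13.7, 14.1, 10.7 and 16.2 FPKM in MyoCre libraries. Its groups did not overlap, as in 2.72% of tested genes, with a log2 fold change of -0.86 (SE 0.22, unadjusted p = 0.00175, limma adjusted p = 0.219). With median-of-ratios scaling they overlapped, since K15-SKO replicate 2 then had 9.53 scaled FPKM and MyoCre replicate 3 had 9.24. The neurotrophin Ntf3 measured 1.17 ± 0.140 FPKM in K15-SKO and 1.55 ± 0.525 FPKM in MyoCre muscle, and Ntf5 and Gdnf averaged under the filter of 1 FPKM.

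The 6 most abundant of these other factors were mostly matrix proteins, and they also missed the threshold. Dcn and Bgn, small proteoglycans, had log2 fold changes of -0.38 (SE 0.21) and -0.16 (SE 0.20). Sparc and Postn, matrix proteins of connective tissue, had log2 fold changes of -0.19 (SE 0.24) and -0.51 (SE 0.24), Lgals1, a secreted lectin, one of 0.06 (SE 0.20), and the matricellular Ctgf one of -0.50 (SE 0.35). The list's median lay 0.09 below that of all genes, and from 0.17 below it without MyoCre replicate 1 to 0.01 above it without MyoCre replicate 4.

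Genes that control or process these factors showed 0 of 27 tested past the threshold, with a median 0.05 above that of all genes (-0.0043 against it without MyoCre replicate 3). At unadjusted p under 0.05, 1 of 27 was lower, near the 3.43% of all tested genes, and 0 were higher. It was Pcsk5, a proprotein convertase, with 1.68 ± 0.387 FPKM in K15-SKO and 2.61 ± 0.328 FPKM in MyoCre muscle (SD, n = 4 each), a log2 fold change of -0.53 (SE 0.19) and limma adjusted p = 0.825. The most abundant were the muscle transcription factor Mef2c (-0.19), the oxygen sensor Egln1 (-0.06), the energy-sensing kinase subunit Prkaa2 (-0.19), the nuclear receptor Esrra (-0.19), Ppargc1a (-0.05) and the hypoxia factor Epas1 (0.26), with log2 fold changes in brackets. All of these but Esrra were lowest in K15-SKO replicate 3 within their genotype, the library in which Bdnf, Ostn, Fndc5, Vegfa and Vegfb were lowest too. That library had a median-of-ratios factor of 0.80, and after that scaling Egln1, Epas1 and Vegfb were no longer lowest in it. The share of all genes lowest in it was not counted.

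Hypoxia-responsive genes, which include known companions of Vegfa, gave 0 of 19 past the threshold and a median 0.02 above that of all genes (-0.0026 against it without K15-SKO replicate 1, 0.08 without K15-SKO replicate 4), with P4ha1 at a log2 fold change of -0.37 and the glucose transporter Slc2a1 at -0.32. Activity-dependent early genes, with which Bdnf is known to be induced in neurons, gave 0 of 14 past the threshold and a median 0.13 below that of all genes, which was 0.30 below it without K15-SKO replicate 3 and 0.08 below it without K15-SKO replicate 4. The antiproliferative gene Btg2 measured 24.9 ± 3.22 FPKM in K15-SKO and 40.4 ± 10.3 FPKM in MyoCre muscle (log2 fold change -0.66, limma adjusted p = 0.499). Atf3, a stress-induced transcription factor, measured 4.74, 7.38, 3.81 and 6.05 FPKM in K15-SKO libraries, against 14.2, 15.9, 5.29 and 8.65 FPKM in MyoCre libraries (log2 fold change -0.86, limma adjusted p = 0.854). The summed level of the activity genes was 123.7 to 153.2 FPKM in K15-SKO and 166.1 to 205.5 FPKM in MyoCre libraries, which do not overlap. With median-of-ratios scaling they overlapped, since K15-SKO replicate 3 then summed to 186.7 and MyoCre replicate 3 to 144.0 scaled FPKM. Their part in the Bdnf values was not tested.

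The 3 tested genes whose profiles over the 8 libraries lay nearest to that of Bdnf were Bckdhb, Adhfe1 and Ccbl2. Likeness was the root mean square difference of centred log2 values, which was 0.31, 0.32 and 0.33, where the Bdnf profile itself has a root mean square of 0.89. Bckdhb, a subunit of the branched-chain ketoacid dehydrogenase, measured 12.5, 10.6, 7.80 and 12.8 FPKM in K15-SKO libraries, against 27.1, 20.4, 30.9 and 29.1 FPKM in MyoCre libraries. As with Bdnf, the lowest library of each genotype was K15-SKO replicate 3 and MyoCre replicate 2. Adhfe1, a mitochondrial transhydrogenase, and Ccbl2, a kynurenine aminotransferase, were lowest in those same libraries, although after median-of-ratios scaling K15-SKO replicate 3 no longer had the lowest Ccbl2 of its group. All 3 passed the test of the genotype (limma adjusted p = 0.00693, 0.000328 and 0.0339). Adhfe1 passed in all 22 alternative fits and Bckdhb in 20, whereas the call of Ccbl2 ended in 13 of 22 (adjusted p = 0.137 with median-of-ratios scaling). For Metrnl the nearest were Pcyt2, an enzyme of phosphatidylethanolamine synthesis, the mitochondrial ribosomal gene Mrpl55 and the mitochondrial import gene Timm10, with root mean square differences of 0.15, 0.17 and 0.17 beside 0.44 for Metrnl itself. Genes that differ between the genotypes resemble each other by that difference alone, so likeness over these 8 libraries is a description. Since these genes were picked for that likeness, sharing the lowest libraries and the genotype difference of Bdnf is largely set by the choice.

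**Figure D5:**
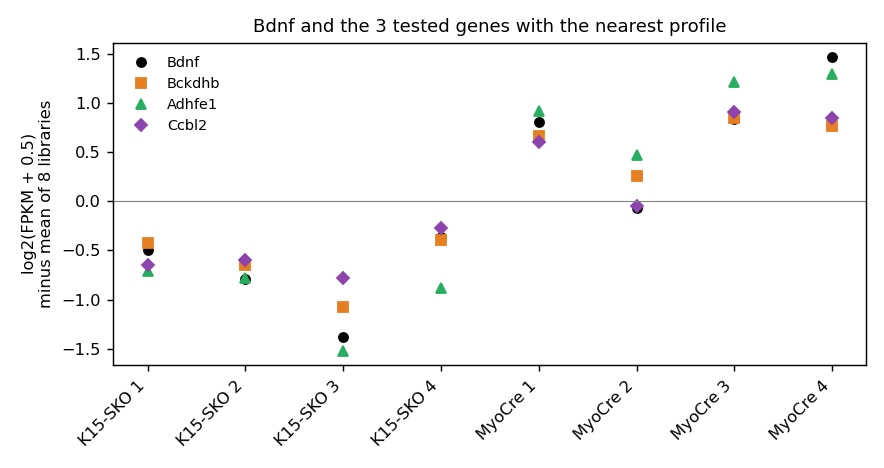
Points show log2(FPKM + 0.5) minus the gene's mean over 8 libraries (y axis) for Bdnf, Bckdhb, Adhfe1 and Ccbl2 in 4 K15-SKO (left) and 4 MyoCre (right) libraries. For all 4 genes K15-SKO replicate 3 is the lowest K15-SKO point and MyoCre replicate 2 the lowest MyoCre point. Bckdhb, Adhfe1 and Ccbl2 were picked for profiles near that of Bdnf over these same libraries.

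Among markers of other cell types and fibre types, 0 genes passed as lower. The list medians depended on single libraries, so each is followed by its lowest and highest value, against the all-gene median, over single left-out libraries. Genes named with a list have its smallest unadjusted p-values, unless stated, so they do not stand for the list. Nerve and Schwann cell markers were 0.03 under the all-gene median (-0.11 without K15-SKO replicate 3, 0.05 without MyoCre replicate 1), with 0 of 6 past the threshold. Macrophage and immune markers lay 0.24 below (-0.48 without K15-SKO replicate 3, 0.01 without K15-SKO replicate 1), with Mrc1 at -0.40 and Adgre1 at -0.42 and 0 of 11 past it. Tendon markers lay 0.28 below (-0.45 without MyoCre replicate 1, -0.16 without K15-SKO replicate 1), with Kera at -1.12 and Tnmd at -0.68 and 0 of 8 past it. Fat cell markers lay 0.11 below (-0.42 without K15-SKO replicate 3, 0.09 without K15-SKO replicate 4), with Plin1 at -0.65 and Cfd at -0.76 and 0 of 7 past it. Of the 7, 5 were under the all-gene median, and the most abundant, Fabp4, was at 0.20. Red cell genes lay 0.93 above (0.20 without K15-SKO replicate 3, 1.25 without K15-SKO replicate 1), with Alas2 at 0.80 and Hbb-bs at 0.74 and 0 of 5 past it. Satellite cell markers with values in both genotypes lay 0.01 above (-0.05 without MyoCre replicate 2, 0.11 without K15-SKO replicate 1), with Chodl at -0.63 (limma adjusted p = 0.890). Of these 5 markers 2 were under the all-gene median. Slow muscle genes lay 0.02 above the median (-0.15 without MyoCre replicate 4, 0.14 without K15-SKO replicate 4), with Casq2 at 0.26 and Tnnc1 at -0.26 and 0 of 10 past it. Cdh15 and the fast myosin Myh2 passed as higher and are listed at 0 in all 4 MyoCre libraries, as are all 46 genes that passed as higher, so no fold change is given. The other fast muscle genes lay 0.14 above the median (0.02 without K15-SKO replicate 3, 0.43 without K15-SKO replicate 4), with Actn3 at 0.67 (SE 0.37). No member is listed at 0 in a whole genotype.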

How the data were processed

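RNA from 8 soleus samples, 4 K15-SKO and 4 MyoCre, was analysed from 1 deposited table. The values are taken to be FPKM made by the authors, because the submitters' processing notes name Cufflinks and Cuffdiff (with STAR and mm10) and the values are neither whole nor of equal sum. Not given in the sources used here are versions, annotation release, strand setting, filters and library scaling. Libraries were assigned through their labels, and 0 columns of values were left unmapped. Nothing says whether samples came from separate litters, so p-values measure the spread between these samples.

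Values were fitted as log2(FPKM + 0.5) in limma 3.58.1 (R 4.3.3) with the genotype alone, a mean-dependent trend and robust estimation, for the 12535 genes that averaged 1 FPKM or more. Tests were two-sided with Benjamini-Hochberg adjustment over all of these genes at 0.05. The fit was tested on simulated data. Depth is approximate: in genes with a single transcript over 1 kb, FPKM was multiplied by length and the lowest common product was taken as 1 fragment. No counts were recovered. Positions come from GENCODE M21 (mm10) and promoter sequences from RefSeq (GRCm38.p6), in which 8 of the 10 members matched by symbol.

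The members and lists were chosen with earlier results of these data known. The genes named are Klf15, the members, all listed receptors, the list genes past the threshold or at unadjusted p under 0.05 among secreted and control genes, the 6 most abundant of each of these lists, the 2 smallest p-values of each other list and the 3 nearest profiles of Bdnf and of Metrnl. Ntf3, Ntf5, Gdnf, Fabp4, Gm45346, Gm32312, Rn7sk and Xist were named after their values were seen. Some genes that this rule names are not reported here.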

Additional observations from a re-analysis of the deposited data

Results flagged for a closer look

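In groups of 4 libraries, the gap between the most extreme value and its nearest neighbour was compared with the whole range. Of 152 groups examined 2 held a value far from the rest, where chance at 1 in 20 gives 7.6, and no member was among them. Hbb-bs, a haemoglobin chain, had 1265 FPKM in K15-SKO replicate 3, against 215.0 to 365.3 FPKM in the other K15-SKO libraries. Cdh5, an endothelial junction gene, had 29.1 FPKM in K15-SKO replicate 1, against 31.3 to 31.8 FPKM in the other K15-SKO libraries.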

How the results depend on the processing

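All results were recomputed under 21 alternatives fixed beforehand and 1, without K15-SKO replicate 3 and MyoCre replicate 2, added after seeing the data. Bdnf, Metrnl and Fstl1 had negative fold changes and Ostn and Il15 positive ones in every alternative that could hold them; Bdnf ranged from -2.06 (pseudocount 0.1) to -1.17 (pseudocount 1) and Ostn from 0.26 to 0.88. The members past the threshold were 0, and became 2 (Bdnf and Ostn) with library weights. They were 1 (Bdnf) with the replicate block, without K15-SKO replicate 4, without MyoCre replicate 2, and without both K15-SKO replicate 3 and MyoCre replicate 2. Over single left-out libraries the range was 0 to 1. Among all 12535 tested genes, 101 were lower and 56 higher with library weights, and 32 lower and 46 higher with the replicate block. Without K15-SKO replicate 4, 22 of 12532 genes were lower and 46 higher. Without MyoCre replicate 2, 28 of 12499 were lower and 52 higher, and without both libraries 19 of 12557 were lower and 47 higher. The 23 genes lower in K15-SKO muscle became 14 with quantile, upper-quartile or median-of-ratios scaling, 15 without robust estimation, 101 with library weights, 12 without the genes listed at 0 and 3 when median-of-ratios scaling was added to that. Over single left-out libraries they ranged from 8 to 28, and were 13 without K15-SKO replicate 1, 14 without MyoCre replicate 1 and 8 without MyoCre replicate 3. The 46 higher genes became 22 at a minimum mean of 5 FPKM and 0 without the genes listed at 0, with or without median-of-ratios scaling (501 and 445 genes at unadjusted p under 0.05), and ranged from 45 to 54 over left-out libraries. List genes past the threshold, 2 as reported, became 1 at a minimum mean of 5 FPKM, 5 with library weights and 0 without the genes listed at 0, with or without that scaling. With the replicate block 32 genes were lower and 46 higher. Same-numbered libraries deviated together with correlations of 0.10, 0.23, 0.00 and 0.28, against -0.24 to 0.13 between differently numbered ones. The highest values, 0.28 and 0.23, were thus between same-numbered libraries. Whether the numbers pair the mice was not settled, and the main fit does not use them. The causes were not tested, beyond that an alternative without the genes listed at 0 cannot call them. Depth limits Bdnf in K15-SKO muscle and Lif in both genotypes.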
